A study of Mus musculus with 9 samples.

Results

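Wdr66 (also named Cfap251), Dusp27 (also named Styxl2) and Synpo2l are 3 of the 48526 genes in the count table of a neural stem cell (NSC) culture sampled during the first hours of differentiation. They were chosen by their read counts, which were much higher at 6 h than at 0 h although the culture was neural, so the values of these 3 genes at 6 h describe that choice and carry no test. The choice gave no threshold. By known role the description "muscle-type" covered Dusp27 and Synpo2l, and did not cover Wdr66. Dusp27 codes for an atypical dual-specificity phosphatase-like protein of striated muscle, and Synpo2l codes for an actin-associated protein of the Z-disc in heart and skeletal muscle. Wdr66 codes for a protein with WD repeats that belongs to cilia and flagella. The 3 genes are therefore named here one by one.

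The cultures were NSCs isolated from the subependymal zone (SEZ) of adult C57BL/6 mice and grown as neurospheres. Differentiation was induced by placing the cells on an adhesive substrate without EGF while FGF was kept. Per the study's methods, cells examined at such early times were first seeded in medium with both factors. Cells were collected before induction (0 h) and after 1 h and 6 h. The 9 mRNA libraries comprised replicates 1 to 3 of each time. No genotype or drug separated the groups, and time was the only factor in the labels. None of the 9 libraries came from cells kept with EGF for the same hours. Time in culture and the removal of EGF therefore cannot be told apart. The labels do not say whether the replicates came from separate mice or cultures, so the p-values measure the spread between these samples, which may be technical. In fits that account for replicate number, they measure the spread left after differences between those numbers. Each library is a bulk culture, in which fewer cells of a type and less RNA per cell cannot be told apart.

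Muscle contracts through sarcomeres, repeating units in which myosin filaments pull on actin filaments that are anchored at Z-discs. Synaptopodin family proteins bind actin and alpha-actinin at such anchoring sites, and Synpo2l is the member found mainly in striated muscle. Motile cilia bend through dynein arms controlled by radial spokes, and the protein of Wdr66 sits in a complex at the base of a spoke together with the proteins of Cfap61 and Cfap91. In the SEZ, ependymal cells carry such motile cilia, whereas striated muscle is absent from the niche. Many genes of muscle are switched on by transcription factors of the MEF2 family, which are also used by neurons.

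The start regions of the 3 genes are shown first, because the windows of Dusp27 and Synpo2l shared a sequence feature. RefSeq windows of 300 bases on GRCm38.p6, with 250 bases before and 50 after an annotated start, were found for 3 of 3 genes, with 1 window for Wdr66, 1 for Dusp27 and 2 for Synpo2l. Each window was searched on both strands for 7 motifs. These were the MEF2 box, the CArG box bound by Srf, the E-box CAGCTG, the TEAD motif CATTCC, the forkhead motif TGTTTAC, the AP-1 motif and the RFX motif GTTGCCA, and the set was chosen after the sequences of the 3 genes had been seen. A MEF2 box was present in 3 of the 4 windows, namely the window of Dusp27 and both windows of Synpo2l. The following stretches of 30 bases surround these matches on the minus strand, outside annotated exons, with the MEF2 box in capitals.
Dusp27, chr1:166127925-166127954, box 46 bases before the start: gggccagaggCTAAATTTAGagactggcta
Synpo2l, chr14:20668444-20668473, box 109 bases before the upstream start: gaaatttgtaCTATAATTAGttctaggagt
Synpo2l, chr14:20664699-20664728, box 144 bases before the inner start: tggctcaggtTTATTTTTAGccaggcagac

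Among 32851 RefSeq windows of the same length, 3.19% held a MEF2 box. The window of Dusp27 also held the E-box CAGCTG 12 bases before the start and the TEAD motif CATTCC 89 bases before it. The inner window of Synpo2l held CAGCTG on both sides of its start, and the upstream window held no other motif. The shares of all windows were 16.3% for CAGCTG, 14.7% for CATTCC and 0.478% for a MEF2 box together with CAGCTG. None of the 4 windows held the CArG box or the forkhead, AP-1 or RFX motif, which were in 1.63%, 3.65%, 7.81% and 4.38% of all windows. The window of Wdr66 held 0 matches to the 7 motifs. That window surrounds a start at position 123253788 of chromosome 5, inside the gene that GENCODE begins at position 123252102, so the region before the outermost start was not searched. A match to letters is a description of the sequence and not of binding. Because the motifs were chosen after these sequences had been seen, the shares do not measure how unusual the matches are.

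Synpo2l (ENSMUSG00000039376) lies on the minus strand of chr14:20658946-20668354 and has 4629 exonic bases in 5 blocks. It was the most abundant of the 3 genes. Its level in CPM (counts scaled to the library total and between libraries with the TMM method) was 1.40, 2.08 and 1.53 in replicates 1 to 3 at 0 h. At 1 h the values were 3.11, 3.95 and 2.89 CPM, and at 6 h they were 9.30, 15.4 and 7.73 CPM. The 3 groups did not overlap, and replicate 2 was the highest library at every time point. The means were 1.67 ± 0.363, 3.32 ± 0.561 and 10.8 ± 4.05 CPM (SD, n = 3), so that the mean at 6 h was 6.47 times the mean at 0 h and 3.26 times the mean at 1 h. Within a replicate number, the 6 h library was 6.66, 7.39 and 5.04 times the 0 h library. The counts behind these levels ran from 101 reads in the lowest library at 0 h to 1399 reads in the highest at 6 h.

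Dusp27 (ENSMUSG00000026564) lies on the minus strand of chr1:166098148-166127922 and has 4049 exonic bases in 6 blocks. Its level was 0.442, 0.324 and 0.530 CPM at 0 h, 0.719, 0.778 and 0.584 CPM at 1 h, and 3.62, 3.05 and 2.28 CPM at 6 h. The 3 groups again did not overlap, but the order of the replicates differed from that of Synpo2l. Replicate 2 was the lowest library at 0 h and the highest at 1 h, and replicate 1 was the highest at 6 h. The means were 0.432 ± 0.103, 0.693 ± 0.0993 and 2.98 ± 0.675 CPM (SD, n = 3). The mean at 6 h was 6.90 times the mean at 0 h and 4.30 times the mean at 1 h. The ratio of 6 h to 0 h varied most for this gene, with 8.19 in replicate 1, 9.39 in replicate 2 and 4.30 in replicate 3.

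Wdr66 (ENSMUSG00000029442) lies on the plus strand of chr5:123252102-123327484 and has 8961 exonic bases in 23 blocks. Its level was 0.470, 0.716 and 0.444 CPM at 0 h, 0.844, 1.08 and 0.653 CPM at 1 h, and 3.87, 6.12 and 3.12 CPM at 6 h. The 6 h libraries were all above the others, whereas the 1 h and 0 h groups overlapped, since replicate 2 at 0 h exceeded replicate 3 at 1 h. The means were 0.543 ± 0.150, 0.861 ± 0.216 and 4.37 ± 1.56 CPM (SD, n = 3). The mean at 6 h was 8.04 times the mean at 0 h and 5.08 times the mean at 1 h. Within replicate numbers, the ratio of 6 h to 0 h was 8.23, 8.54 and 7.02, the narrowest range of the 3 genes.

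**Figure D1:**
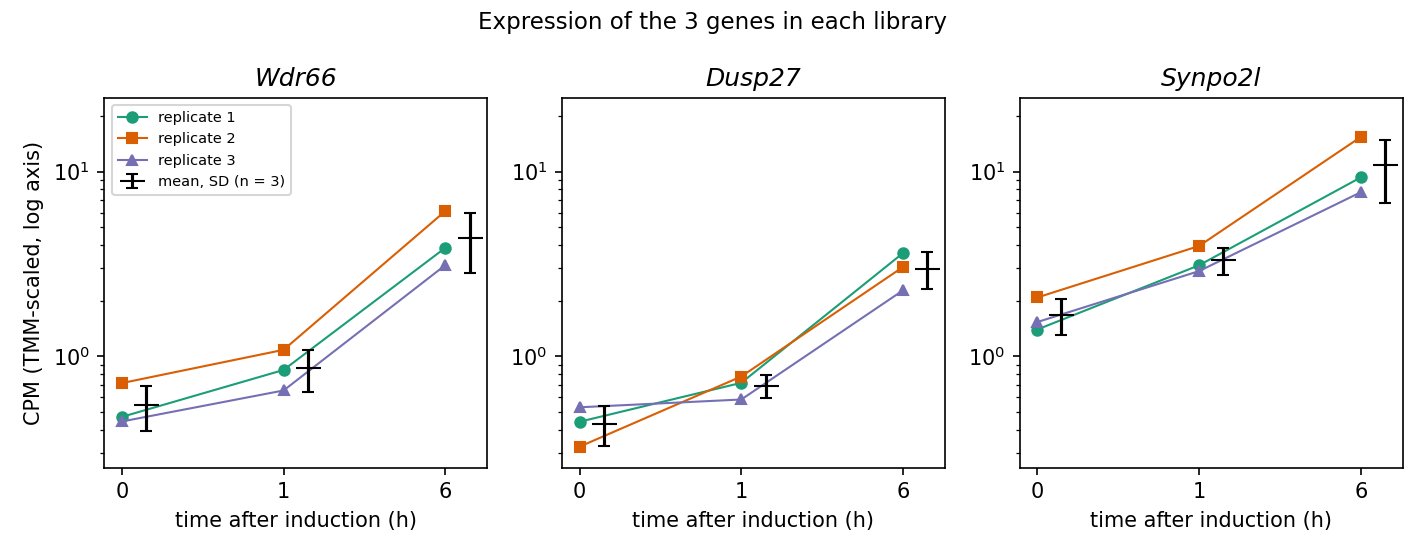
Level of Wdr66, Dusp27 and Synpo2l in TMM-scaled CPM (log axis) against time after induction in hours. Each point is a library, lines join libraries with the same replicate number, and black marks give the mean and SD of 3 libraries. All 6 h libraries lie above the 0 h and 1 h libraries, and replicate 2 is the highest line for Wdr66 and Synpo2l but not throughout for Dusp27.

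At 0 h the 3 genes had few reads. Wdr66 had 31 to 53 reads, Dusp27 had 24 to 37 and Synpo2l had 101 to 154 in a library. The 24 reads of Dusp27 in replicate 2 correspond to 0.324 CPM with an exact Poisson 95% interval of 0.208 to 0.483 CPM, and the 277 reads of the same replicate at 6 h to 3.05 CPM with an interval of 2.70 to 3.43 CPM. For Wdr66 the highest 0 h library had an interval of 0.537 to 0.937 CPM and the lowest 6 h library one of 2.79 to 3.47 CPM. For Dusp27 the highest 0 h library had an interval of 0.373 to 0.730 CPM. That of the lowest 1 h library, 0.421 to 0.789 CPM, overlapped it. These intervals cover counting error only. The 3 genes were chosen for their rise from 0 h to 6 h, so nothing is read from intervals that lie apart there. The lowest 6 h library was 4.35 times the highest 0 h library for Wdr66, 4.30 times for Dusp27 and 3.71 times for Synpo2l.

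Per kilobase of exon, the levels remained low next to those of other genes. The mean of Synpo2l was 0.361 CPM per kb at 0 h, 0.717 at 1 h and 2.33 at 6 h, which placed it at the 22.2, 30.3 and 44.6 percentiles of the 18858 tested genes. Dusp27 had 0.107, 0.171 and 0.737 CPM per kb, at the 9.05, 13.6 and 30.2 percentiles. Wdr66 had 0.0606, 0.0960 and 0.487 CPM per kb, at the 4.70, 8.02 and 25.4 percentiles. On this scale the order of the means was Synpo2l, Dusp27 and Wdr66 at each of the 3 time points. All 3 genes were thus still below the median gene at 6 h. Their fitted log2 fold changes at 6 h against 0 h, 3.00 for Wdr66, 2.78 for Dusp27 and 2.69 for Synpo2l, ranked 7, 10 and 12 from the top among the tested genes, which describes how they were chosen.

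The comparison of 1 h with 0 h did not enter the choice, although it shares the 0 h libraries with the contrast that did. Such a choice favours genes whose 0 h counts are low by chance, which would raise the 1 h ratios as well. The p-values at 1 h are not corrected for this. Synpo2l was higher at 1 h in 3 of 3 replicates, by 2.23, 1.90 and 1.89 times. Its log2 fold change was 0.99 (SE 0.29) with an adjusted p of 0.889 in the edgeR quasi-likelihood fit without a block. Same-numbered libraries deviated together across genes. In the edgeR fit that blocked by replicate number, the log2 fold change was 0.99 (SE 0.13) with an adjusted p of 0.00112, which passed the threshold. Over all alternatives the adjusted p of Synpo2l lay between 4.4e-09 and 1.00, and without a block it was at least 0.120.

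Dusp27 was 1.62, 2.40 and 1.10 times higher at 1 h than at 0 h in replicates 1 to 3. The log2 fold change was 0.68 (SE 0.26), with an adjusted p of 1.00 in edgeR without the block and 0.154 with it, and between 0.108 and 1.00 over all alternatives. Wdr66 was 1.80, 1.51 and 1.47 times higher. Its log2 fold change was 0.66 (SE 0.33), with an adjusted p of 1.00 in edgeR without the block and 0.0540 with it (SE 0.17). The block in DESeq2 gave Wdr66 an adjusted p of 0.0483. The threshold at 1 h was thus passed only by Synpo2l in edgeR with the block, and by Synpo2l and Wdr66 in DESeq2 with the block.

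Background shares put these results into proportion. At 1 h against 0 h, 0.0424% of the tested genes passed the threshold in the higher direction without the block. With it in edgeR, 1.36% passed in the higher direction and 2.14% in the lower. For the block in DESeq2 this share was not counted. Libraries at 1 h that all lay above those at 0 h, as for Synpo2l and Dusp27, were found for 3.30% of the genes, and 20.8% were higher in 3 of 3 replicates. At 6 h against 0 h, 12.8% of the tested genes had all 6 h libraries above all 0 h libraries, and at 6 h against 1 h 12.1% had. Both contrasts hold the 6 h values on which the 3 genes were chosen, and nothing is read from these last shares.

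**Figure D2:**
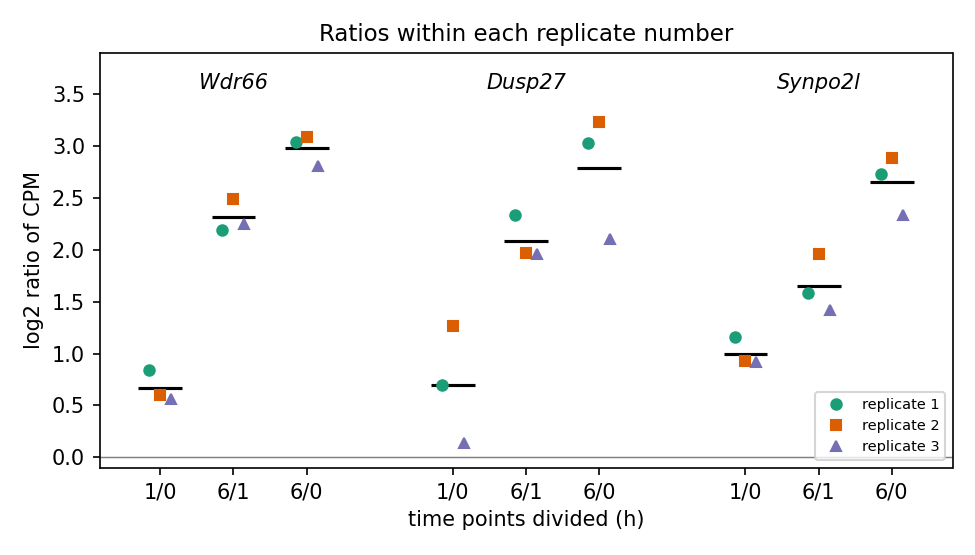
Log2 ratio of CPM between time points within each replicate number (1 h to 0 h, 6 h to 1 h, 6 h to 0 h), with points for replicates and a bar for their mean. All ratios are above 0, Dusp27 shows the widest spread in both contrasts with 0 h, with 1.10 to 2.40 times at 1 h, and the 1 h ratios of Wdr66 and Synpo2l lie close together.

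Wdr66 and Synpo2l also varied together within a time point. After the mean of each time point was subtracted from log2 CPM, replicate 2 deviated by 0.41 at 0 h, 0.35 at 1 h and 0.54 at 6 h for Wdr66, and by 0.33, 0.26 and 0.57 for Synpo2l. The Pearson correlation of these deviations over the 9 libraries was 0.96 for Wdr66 with Synpo2l. It was 0.075 for Wdr66 with Dusp27 and 0.080 for Dusp27 with Synpo2l. Without the subtraction the correlations were 0.984, 0.949 and 0.938, as time was shared by all 3 genes. The 9 points share time points and replicate numbers, and same-numbered libraries deviated together across genes, so these are descriptions. How many other pairs of genes reach such values was not counted.

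**Figure D3:**
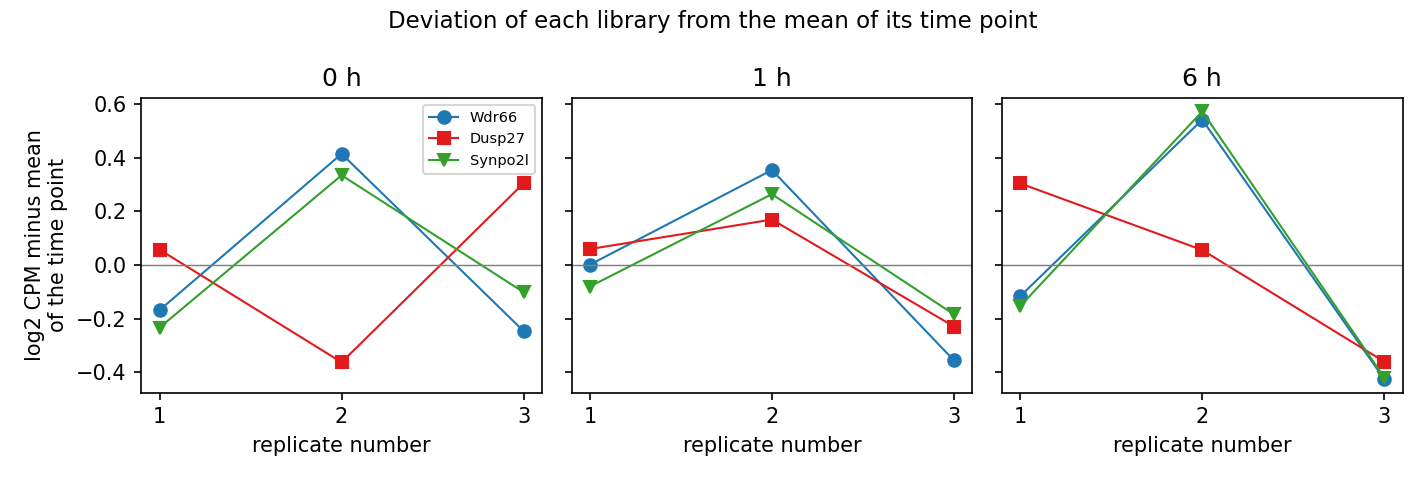
Log2 CPM minus the mean of the time point for each library, by replicate number, in 1 panel per time. The lines of Wdr66 and Synpo2l nearly coincide and peak in replicate 2 in every panel, whereas Dusp27 is lowest in replicate 2 at 0 h.

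The 5 genes most correlated with Wdr66 in log2 CPM were Hdac7, Ank, Acad10, Dlg3 and Pde9a, with r between 0.984 and 0.987 and means at 6 h of 1.52 to 2.52 times those at 0 h. For Dusp27 they were Dgkz, Wbp2, Vmn2r1, Dll3 and Arsa, with r between 0.976 and 0.988 and ratios of 1.30 to 2.47. For Synpo2l they were Gm6781, Ficd, Wdr66, ENSMUSG00000087594 and Rnft1, with r between 0.979 and 0.986. Wdr66 had a ratio of 8.04, and the other four genes had ratios of 1.44 to 2.40. None of these genes is in the muscle or cilium lists described below. Correlations above 0.95 were reached by 89 genes for Wdr66, 49 for Dusp27 and 42 for Synpo2l.

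Those genes next to the 3 loci that could be tested had smaller log2 fold changes at 6 h against 0 h. Myoz1, which codes for a calcineurin-binding protein of the Z-disc, lies 2405 bases from Synpo2l on the same strand. It had 0 to 12 reads in a library and means of 0.0278 CPM at 0 h, 0.0191 at 1 h and 0.0887 at 6 h, too few to be tested. Sec24c, a coat protein of vesicles that leave the endoplasmic reticulum, lies 5953 bases from the other end of Synpo2l and had a mean of 161 CPM before induction and 201 CPM at 6 h. Its log2 fold change was 0.33 (edgeR adjusted p 0.174 without the block and 1.9e-04 with it). Near Dusp27, Gpa33 went from 0.139 to 0.107 CPM (edgeR adjusted p 0.788) at a distance of 2315 bases. Pou2f1, an octamer-binding transcription factor 95469 bases away, had a log2 fold change of 0.43 (edgeR adjusted p 0.168 without the block and 0.0064 with it).

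Psmd9, a proteasome assembly factor 1970 bases before Wdr66, had 38.1 CPM at 0 h and 37.5 CPM at 6 h. Bcl7a, a chromatin remodelling subunit 16349 bases beyond its end, had a log2 fold change of 0.45 (edgeR adjusted p 0.112 without the block and 9.3e-05 with it). Among the tested neighbours, the log2 fold changes thus lay between -0.36 and 0.45, against 2.69 to 3.00 for the 3 genes. The antisense gene Gm15857 shares 131 exonic bases with Wdr66 on the opposite strand. The libraries were stranded, but the strand setting of the counting is not given in the sources used here, so that reads in these bases may not be assigned with certainty. The pseudogene Rpl35a-ps6 lies within the Wdr66 locus on the opposite strand, shares 0 exonic bases with it and had at most 4 reads in a library. Gm15857 had at most 3 reads in a library, against 285 to 556 reads for Wdr66 at 6 h.

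Relatives of Synpo2l and Dusp27 by family were measured as well. Synpo, the synaptopodin of dendritic spines and kidney podocytes, had 0.370 ± 0.231 CPM before induction and 0.188 ± 0.0609 CPM at 6 h (SD, n = 3), with a log2 fold change of -0.96 (SE 0.71, edgeR adjusted p 0.563 without and 0.0960 with the block). Synpo2, the myopodin of smooth and striated muscle, had 0.853 ± 0.290 and 1.02 ± 0.278 CPM, with a log2 fold change of 0.26 (SE 0.31, edgeR adjusted p 0.750 without and 0.426 with the block). The list of relatives held both synaptopodins and atypical dual-specificity phosphatases and phosphatase-like genes, 19 in all, of which 16 could be tested. Of all tested genes at 6 h against 0 h, 2.42% were called by edgeR without the block (1.46% higher and 0.955% lower), 17.9% had an unadjusted p under 0.05 and 9.24% were called by DESeq2. With the block in edgeR, 34.9% were called (17.4% higher and 17.5% lower). Of the relatives, edgeR without the block called 0 of the 16, with 1 at an unadjusted p under 0.05 and 1 called by DESeq2. The median log2 fold change was -0.04, against -0.0031 over all tested genes. With the block, 1 rose and 3 fell (25% of the 16, against 34.9%), the latter being Dusp14 (log2 fold change -0.57, adjusted p 0.00182), Dusp15 (-0.43, adjusted p 0.00171) and Dusp3 (-0.43, adjusted p 4.8e-05). All 3 are small dual-specificity phosphatases.

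The sarcomere was represented by 40 filament genes, of which 24 could be tested and 16 were too low. Without the block, edgeR called 0 of them at 6 h against 0 h, with 2 at an unadjusted p under 0.05 and 0 called by DESeq2. The median log2 fold change of the 24 genes was 0.02, and 13 were positive. With the block, 3 sarcomere genes rose and 1 fell (16.7% of the 24, against 34.9% of all tested genes). The 3 largest changes were those of Tnni3, cardiac troponin I (log2 fold change 0.80, adjusted p 0.00280), Tmod1, a cap of the actin filament (0.77, adjusted p 7.5e-04), and Tnnt1, slow skeletal troponin T (0.53, adjusted p 0.00136). Titin (Ttn) was at 2.76 ± 0.164 CPM before induction and 2.82 ± 0.190 CPM at 6 h (SD, n = 3), and Acta1, skeletal actin, was at 0.125 and 0.0887 CPM. These 2 genes were named after their values had been seen.

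The Z-disc and the costamere, the site of Synpo2l, were represented by 26 genes, of which 15 could be tested. Without the block 0 were called by edgeR at 6 h, with 4 at an unadjusted p under 0.05 and 2 called by DESeq2, and the median log2 fold change was -0.01. With the block 3 rose and 3 fell (40.0% of the 15, against 34.9% of all tested genes). Fhl2, a LIM protein of heart muscle, fell by 1.35 on the log2 scale (adjusted p 0.00305), and Nexn, an actin-binding protein of the Z-disc, fell by 0.47 (adjusted p 4.0e-04). Cryab, a small heat shock protein, rose by 0.57 (adjusted p 7.1e-06).

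Smooth muscle and cytoplasmic actomyosin were represented by 28 genes, of which 26 could be tested. Without the block 0 were called by edgeR at 6 h, with 9 at an unadjusted p under 0.05 and 6 called by DESeq2, and the median log2 fold change was -0.15. With the block 5 rose and 13 fell (69.2% of the 26, against 34.9% of all tested genes). Acta2, smooth muscle actin, had 77.2 ± 25.5 CPM before induction and 36.6 ± 10.2 CPM at 6 h (SD, n = 3) and fell by 1.06 on the log2 scale (adjusted p 4.1e-08). Tagln, an actin-binding protein of smooth muscle, fell by 0.88 (adjusted p 8.4e-05), and Myh11, smooth muscle myosin, rose by 1.31 (adjusted p 6.5e-04) at a level of 0.471 to 1.20 CPM.

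Mef2c was the only muscle or cilium gene of these lists that passed the threshold at 6 h without the block in edgeR. It belongs to the 14 myogenic regulators, of which 5 could be tested, and codes for a MEF2 transcription factor of muscle and of neurons. Its level was 23.2, 22.2 and 19.3 CPM at 0 h, 22.5, 20.2 and 17.8 CPM at 1 h, and 91.7, 83.8 and 65.2 CPM at 6 h. The 6 h libraries stood apart from the others, and those of 0 h and 1 h overlapped. Mef2c rose by 1.89 on the log2 scale at 6 h (SE 0.15, edgeR adjusted p 0.00316 without the block and 2.2e-09 with it), in 3 of 3 replicates. At 1 h its log2 fold change was -0.10, with an adjusted p of 1.00 in edgeR. Replicate 1 was its highest library at each time. The highest library of Wdr66 and Synpo2l was replicate 2 at each time. That of Dusp27 was replicate 3 at 0 h, replicate 2 at 1 h and, as for Mef2c, replicate 1 at 6 h. A link between Mef2c and the 3 genes was not tested. Of the other tested regulators, Mef2d rose with the block by 0.18 (adjusted p 0.0261) and Mef2a had 0.12 (edgeR adjusted p 0.0898 with the block). Myod1 and Myog were too low to be tested.

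The motile cilium, the site of the Wdr66 protein, was represented by 48 genes, of which 39 could be tested. Without the block 0 were called by edgeR at 6 h, with 9 at an unadjusted p under 0.05 and 3 called by DESeq2, and the median log2 fold change was -0.22, with 11 of 39 genes positive against 49.5% of all tested genes. With the block 3 rose and 12 fell (38.5% of the 39, against 34.9% of all tested genes). Dnah12, a dynein heavy chain, rose by 1.65 on the log2 scale (adjusted p 0.00532) at 0.0879 to 0.284 CPM, and Hydin, a protein of the central pair of ciliary microtubules, rose by 1.36 (adjusted p 5.4e-06). Ccdc40, a ruler of dynein spacing, fell by 0.94 (adjusted p 6.4e-04). Cfap61, a partner of the Wdr66 protein, had 0.615 ± 0.0789 CPM before induction and 0.367 ± 0.0445 CPM at 6 h (SD, n = 3), with a log2 fold change of -0.75 (edgeR adjusted p 0.166 without the block) and of -0.73 with it (adjusted p 0.0323). Cfap91, the other partner, had a log2 fold change of -0.15 (edgeR adjusted p 0.882). The partners were also named after their values had been seen.

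**Figure D4:**
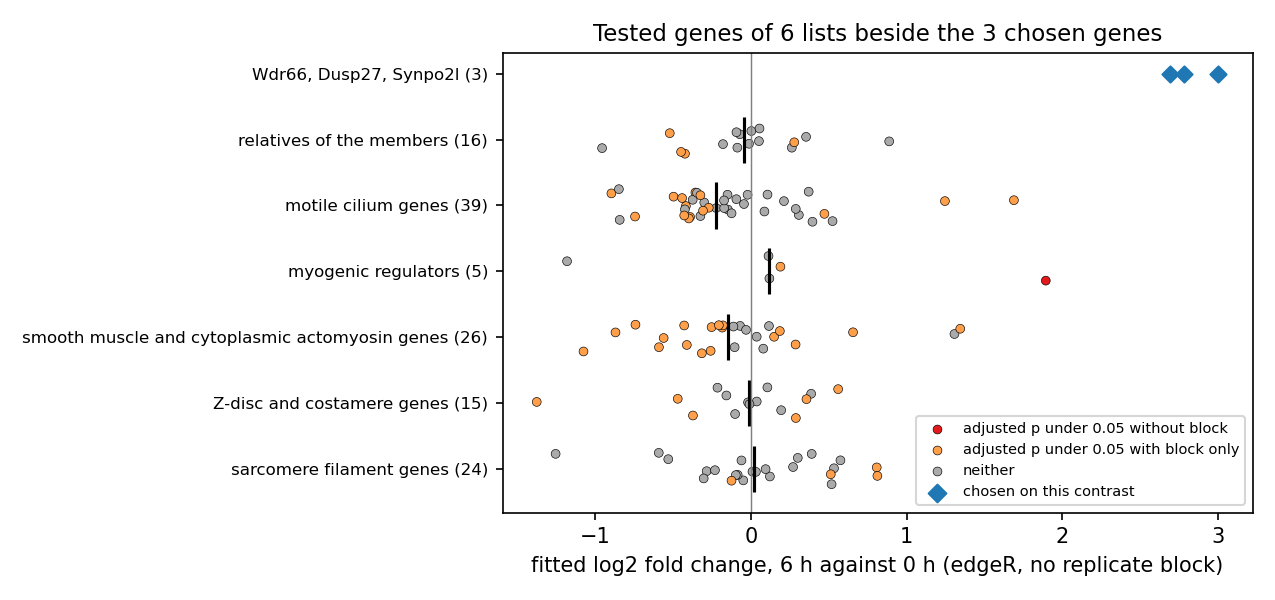
Fitted log2 fold change at 6 h against 0 h (edgeR, no replicate block) of the tested genes of 6 lists and of the 3 chosen genes, with the number of genes in parentheses and a vertical bar at the median of each list. The 3 chosen genes lie between 2.69 and 3.00, Mef2c at 1.89 is the 1 list gene called without the block (red), and genes called only with the block are orange.

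At 1 h against 0 h, edgeR without the block called 0 genes of each of the 6 lists, and DESeq2 without the block also called 0. Among all 18858 tested genes, edgeR called 8 and DESeq2 called 99. Lists of 5 to 39 tested genes could hardly hold a call at such rates, so nothing is read from these zeros. An unadjusted p under 0.05 in edgeR was found for 1 myogenic regulator, 1 motile cilium gene and 0 genes of the other 4 lists. It was found for 735 of all 18858 tested genes. With the block in edgeR, Acta2 (log2 fold change 0.24, adjusted p 0.0271), Srf (0.37, adjusted p 0.0448), the serum response factor, Fhl1 (0.19, adjusted p 0.0489) and Cfap43 (0.49, adjusted p 0.00237) rose. Mrtfb, a coactivator of Srf, fell by 0.33 (adjusted p 0.0113) and Smtn, smoothelin, fell by 0.29 (adjusted p 0.0403). No sarcomere gene and no relative of the 3 genes was called by edgeR at 1 h with the block, where 3.51% of all tested genes were called.

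Markers of other cell types were measured beside these results. Markers of NSCs summed to 6755 to 9620 CPM in the 9 libraries, with 10 of 10 genes tested. Skeletal muscle markers summed to between 3.53 and 4.14 CPM at 0 h, between 3.75 and 4.50 at 1 h and between 3.60 and 4.18 at 6 h, with 3 of 10 genes tested and Myog, Ckm, Tnnt3 and Myh4 under 0.1 CPM in every library. Heart muscle markers summed to between 4.62 and 6.53 CPM at 0 h, between 4.30 and 6.77 at 1 h and between 7.17 and 7.78 at 6 h, with 4 of 7 genes tested and Myl7 and Nkx2-5 under 0.1 CPM in every library. The sum of the heart list was thus higher at 6 h, as were the 3 genes, and its part in the result was not tested. Its members did not move alike. Tnni3 had means of 2.18 CPM at 0 h and 3.81 CPM at 6 h, and Myh6 of 1.40 and 1.83 CPM. Actn2 had means of 1.80 and 1.55 CPM, and Tnnt2, at a low level, of 0.163 and 0.111 CPM.

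Mural cell markers summed to between 172 and 217 CPM at 0 h, between 162 and 243 at 1 h and between 161 and 193 at 6 h. Within this list Acta2 fell with the block, as given above, and so did Rgs5, from a mean of 1.99 to 1.18 CPM (log2 fold change -0.77 and adjusted p 0.00430 with the block in edgeR, adjusted p 0.700 without it). Myh11, also of this list, rose with the block, as given above, from a mean of 0.471 to 1.20 CPM. Pdgfrb had 0.0691, 0.0405 and 0.387 CPM at 0 h and 0.760, 0.627 and 4.97 CPM at 6 h (log2 fold change 3.68, edgeR adjusted p 0.175 without the block and 2.3e-07 with it). Replicate 3 was its highest library at 0 h as well as at 6 h, and was the lowest for each of the 3 genes at 6 h. Whether Pdgfrb and the 3 genes rose together was not tested. Ependymal markers, which include genes of motile cilia, summed to between 70.6 and 115 CPM at 0 h, between 80.5 and 131 at 1 h and between 70.7 and 97.7 at 6 h. Endothelial markers summed to between 4.97 and 20.0 CPM at 0 h and between 3.23 and 10.8 at 6 h, and markers of microglia and blood reached at most 0.570 CPM, with Itgam, Hbb-bs and Hba-a1 at 0 reads.

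The total counts of the 9 libraries lay between 65871454 and 105592597, and the TMM factors between 0.97 and 1.02. Of the 48526 genes, 31382 had at least 1 read and 18858 could be tested, the 3 chosen genes among them.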

How the data were processed

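RNA-seq counts of 9 libraries were used. The authors deposited raw counts of paired-end reads per Ensembl gene without normalisation. Per the submitters' processing notes, STAR 2.5.3a, mm10 (GRCm38), FastQC and DESeq2 1.22.1 were used, and the strand setting is not given in the sources used here. Of the 48526 identifiers, 48058 had a symbol in GENCODE M21.

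The fits used edgeR 4.0.16 in R 4.3.3 (filterByExpr with a minimum count of 10 and a minimum total of 15, TMM, glmQLFit and glmQLFTest on time point over 9 libraries). P-values were adjusted over 18858 genes by the Benjamini-Hochberg method, with a threshold of 0.05. Correlations used log2 CPM with a prior count of 2. The scripts were tested on simulated data. Alternatives were DESeq2 1.42.0, the replicate number as a block in either tool, RLE scaling, library totals, no filter, a mean of at least 1 CPM and leaving out each library. Summaries and plots came from Python 3.11.15 (scipy 1.17.1, pandas 2.3.3, matplotlib 3.10.9, numpy 2.4.6).

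Replicate numbers come from the labels. Deviations from the time means correlated by 0.733 to 0.800 in 9 pairs of libraries with the same number and by -0.462 to -0.314 in the 18 pairs of unlike numbers, all between libraries of different time points. The numbers were therefore taken to pair the samples.

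The 3 genes, the lists and the rules were chosen with earlier results of these data known. Of a list, up to 5 genes called without the block were named by the size of their change, or otherwise up to 3 called with it. The neighbours, overlapping genes, Synpo, Synpo2 and the 5 genes most correlated with each gene were always named. Other genes, such as the markers, Mef2a, Mef2d, Ttn, Cfap61 and Acta2 at 1 h, were named after their values had been seen. Sequences are from RefSeq windows on GRCm38.p6. Splicing was not analysed here, and 1 gene that the rule would name is not reported here.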

Additional observations from a re-analysis of the deposited data

How the results depend on the processing

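The replicate block was the setting that changed most. In the paired analysis with edgeR, Synpo2l passed at 1 h with 0.99, and in the paired analysis with DESeq2 Synpo2l (1.00) and Wdr66 (0.67) passed. In edgeR with the block, 4 of 24 sarcomere, 6 of 15 Z-disc and 18 of 26 actomyosin genes passed at 6 h. So did 2 of 5 myogenic, 15 of 39 motile cilium and 4 of 16 related genes, against 34.9% of all tested genes. For 1 h the same fit gave 1 Z-disc, 4 actomyosin, 1 myogenic and 1 motile cilium gene, against 3.51% of all tested genes. With the block in DESeq2 the counts, in the same order of lists, were 4, 6, 18, 2, 11 and 3 at 6 h. For 1 h they were 2 for sarcomere, 2 for Z-disc, 5 for actomyosin and 1 for motile cilium genes. The share of all tested genes called with the block in DESeq2 was not counted, so nothing is read from its counts. DESeq2 without the block called 2 Z-disc, 6 actomyosin, 1 myogenic, 3 motile cilium and 1 related gene at 6 h. Its share of all tested genes was 9.24%. Other single genes that passed only with the block are described as such beside their values. The block changed no other call of the 3 genes. With it, edgeR put the relative spread left between libraries at 0.0627, against 0.277 when replicate numbers were ignored. A count of 0 called genes in the latter fit therefore does not show that levels were unchanged. How far this spread accounts for the differences in calls was not tested. Without 1 library, the log2 fold changes at 1 h ranged from 0.46 to 0.92 for Wdr66, 0.52 to 0.85 for Dusp27 and 0.84 to 1.19 for Synpo2l. At 6 h they ranged from 2.68 to 3.26, 2.62 to 2.96 and 2.35 to 2.89. Without 1 library, 1 myogenic regulator at 6 h and 0 genes of each other list and comparison were called. RLE scaling, library totals, no filter and a mean of at least 1 CPM changed no call of the 3 genes or lists. Depth limits the 0 h levels most, since Dusp27 had as few as 24 reads there.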
